A study of Homo sapiens with 26 samples.

Results

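Long intergenic noncoding RNAs that carry a LINC symbol were examined in OCI-Ly7 and SUDHL4, a pair of established human lymphoma lines of germinal centre B cell origin. A gene was taken as expressed when its abundance, in TPM (transcript abundance corrected for length and scaled to the library) summed over its transcripts and averaged over the files of a group, reached 1 TPM in at least 1 of the 6 groups of libraries. Of 2280 genes with a LINC symbol, 1691 had any read and 184 met this level, out of 58592 genes in all. The members were chosen by these measured TPM values, so their presence in a line is given as a description without a test. At the edge of the rule, LINC03049, LINC02694 and LINC01887 entered with 1.00, 1.01 and 1.03 TPM in their highest group, and LINC00910, LINC03021 and LINC02644 stayed out with 0.989, 0.988 and 0.979 TPM.

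All libraries came from cells that carried dCas9-BFP-KRAB, a catalytically dead Cas9 fused to a repressor domain and delivered by lentivirus. In OCI-Ly7, 6 libraries had guides against POU2AF1 (labelled OCABi), 8 had guides against POU2F2 (labelled OCT2i) and 4 had non-targeting guides. In SUDHL4, 1 library had POU2AF1 guides, 2 had POU2F2 guides and 1 had non-targeting guides, so the POU2AF1 knockdown and the control have no replicate in that line. POU2F2 encodes OCT2, a B cell transcription factor that binds the octamer DNA motif, and POU2AF1 encodes OCA-B, a coactivator that joins OCT factors on that motif. The labels do not say that replicates were separate cultures, so p-values reflect the spread among these libraries, which may be technical. Only a few files carry a time label, 48 h. The lines were grown in different media, IMDM for OCI-Ly7 and RPMI for SUDHL4, so line and medium cannot be told apart. The labels name a batch: OCI-Ly7 OCABi replicates 1 to 4, control replicate 1 and all SUDHL4 libraries were in batch 1, and the other OCI-Ly7 libraries were in batch 2, where most also carry a series mark.

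Long noncoding RNAs are transcribed by RNA polymerase II, spliced and often polyadenylated like messenger RNAs, but are not known to encode proteins. As a class they are less abundant and more restricted to particular cell types than messenger RNAs, and some act on neighbouring genes. LINC symbols are assigned mostly to those that lie between protein-coding genes and have no established function, so for most genes below the position and the neighbouring gene are the known annotation.

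The deposited files held between 24959865 and 53155548 estimated reads each. All 12 germinal centre B cell markers examined reached 1 TPM in every group. The summed level of 9 T and NK cell markers was at most 3.26 TPM in any library, with CD2 and CD8A under 0.1 TPM in every group. In every group 8 of these 9 stayed under 1 TPM, and 1 reached it in at least 1 library. The summed level was at most 1.21 TPM for 6 monocyte markers and 0.657 TPM for 6 epithelial and stromal markers. POU2AF1 had 14.8 to 47.7 TPM in the 6 OCI-Ly7 OCABi libraries, against 212 to 235 TPM in the 4 controls, and 33.5 TPM against 207 TPM in SUDHL4. POU2F2 had 17.7 to 45.1 TPM in the 8 OCI-Ly7 OCT2i libraries, against 63.5 to 117 TPM in the controls, and 11.3 and 18 TPM in SUDHL4 OCT2i, against 125 TPM. OCI-Ly7 OCABi replicate 1 took 25.8% of its reads from mitochondrial genes. In bulk RNA, fewer expressing cells and less RNA per cell cannot be told apart.

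The 184 members lay on 23 chromosomes, and 159 of them (86.4%) did not overlap a protein-coding gene. Another 14 overlapped a coding gene on the same strand and 11 on the opposite strand. For the 159 without an overlap, the median distance to the nearest coding gene was 25029 bp, and 15 members started close to a coding gene's start, within 2000 bp, on the opposite strand. The leading transcript, the one with most TPM, had a median of 3 exons and a median length of 762 nt, with 23 members led by a transcript of 1 exon. The symbol is no guarantee of the annotated type: GENCODE release 29 called 140 members lincRNA, 15 processed transcripts, 13 antisense and 3 protein-coding. Among 31-base words of their transcripts, 16 members shared more than 50% with other genes, LINC01670 with 97.6%, LINC01001 with 90.9% and LINC01002 with 77.8%, and their read assignment is uncertain. The libraries were made with a stranded kit, but the strand setting of the quantification is not given in the sources used here, so members that overlap a gene on either strand are uncertain as well. These include LINC00598, LINC01160, LINC00339 and LINC02021 among the genes below.

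Summed over the 184 members, the mean level over files was 887 TPM in OCI-Ly7 OCABi, 1130 TPM in OCT2i and 1002 TPM in controls. These means include repeated control files and are not adjusted for batch. Most OCABi libraries were in batch 1 and all OCT2i libraries in batch 2, so knockdown and batch cannot be told apart in these sums. In SUDHL4 the sum was 858 TPM in OCABi, 854 TPM in OCT2i and 844 TPM in the control. Most members were low: the median of their mean level over the 6 groups was 2.03 TPM, and 25 of them averaged above 10 TPM. The 10 highest members of a group carried between 36.5% and 39.2% of its sum. Between libraries of 1 OCI-Ly7 group, the median coefficient of variation was 37.0% over 132 members in OCABi, 37.2% over 144 in OCT2i and 39.2% over 139 in controls.

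LINC00426, on chr13:30340270-30377145 (GRCh38, minus strand), was high in both lines. It had 59.4 ± 14.1 TPM in OCI-Ly7 OCABi (SD, n = 6), 75.3 ± 17.3 TPM in OCT2i (n = 8) and 69.8 ± 22.9 TPM in controls (n = 4). In SUDHL4 it had 74.3 TPM in OCABi, 65.5 and 71.1 TPM in OCT2i and 52.9 TPM in the control. LINC00426 was called higher in SUDHL4 after POU2AF1 knockdown, by a log2 change of 0.60 ± 0.11 (SE; adjusted p = 4.94e-05, edgeR within SUDHL4), which did not hold in a joint fit, where all libraries of both lines shared 1 estimate of the spread (adjusted p = 0.614). LINC03034, on chr15:31221999-31230838, was of like height, with 49.5 TPM in SUDHL4 OCABi, 49.6 and 65.5 TPM in OCT2i and 54.1 TPM in the control. In OCI-Ly7, LINC03034 ran from 15.7 to 60.3 TPM with a median of 21.5 TPM in OCABi, from 43.6 to 72.8 TPM with a median of 60.0 TPM in OCT2i, and had 39.2, 51.7, 69.1 and 73.0 TPM in controls. The OCABi libraries of LINC03034 overlapped the controls through replicate 6 alone, and the change was not called (log2 change -0.62 ± 0.24, edgeR adjusted p = 0.502).

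The other members among the 10 highest differed in how evenly the lines shared them. LINC02137, LINC02210, LINC01089, LINC00339 and LINC01754 had group means between 8.19 and 40.4 TPM in both lines. LINC01480, on chr19:41535183-41536904, had 54.7 ± 19.7 TPM in OCI-Ly7 OCABi, 71.0 ± 15.8 TPM in OCT2i and 64.3 ± 15.1 TPM in controls, but 3.13 TPM in SUDHL4 OCABi, 2.41 and 2.86 TPM in OCT2i and 1.71 TPM in the control. LINC01002 had 36.2 to 105 TPM in the OCI-Ly7 libraries and 11.2 to 19.4 TPM in the SUDHL4 libraries. LINC00487, on chr2:6728177-6770311, showed the opposite order, with at most 0.388 TPM in any OCI-Ly7 library, against 23.6 TPM in SUDHL4 OCABi, 30.5 and 47.0 TPM in OCT2i and 43.1 TPM in the control. The ranges of the lines did not overlap for LINC01480, LINC01002 or LINC00487.

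Over the whole list, 110 members reached 1 TPM in both lines, 38 in OCI-Ly7 alone and 36 in SUDHL4 alone. These counts move with the level, to 130, 25 and 29 at 0.5 TPM. By groups, 78 members reached 1 TPM in all 6 groups and 17 in a single group. A stricter pattern, below 0.1 TPM in all 3 groups of the other line, held for 7 members of OCI-Ly7 and 16 of SUDHL4.

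**Figure D1:**
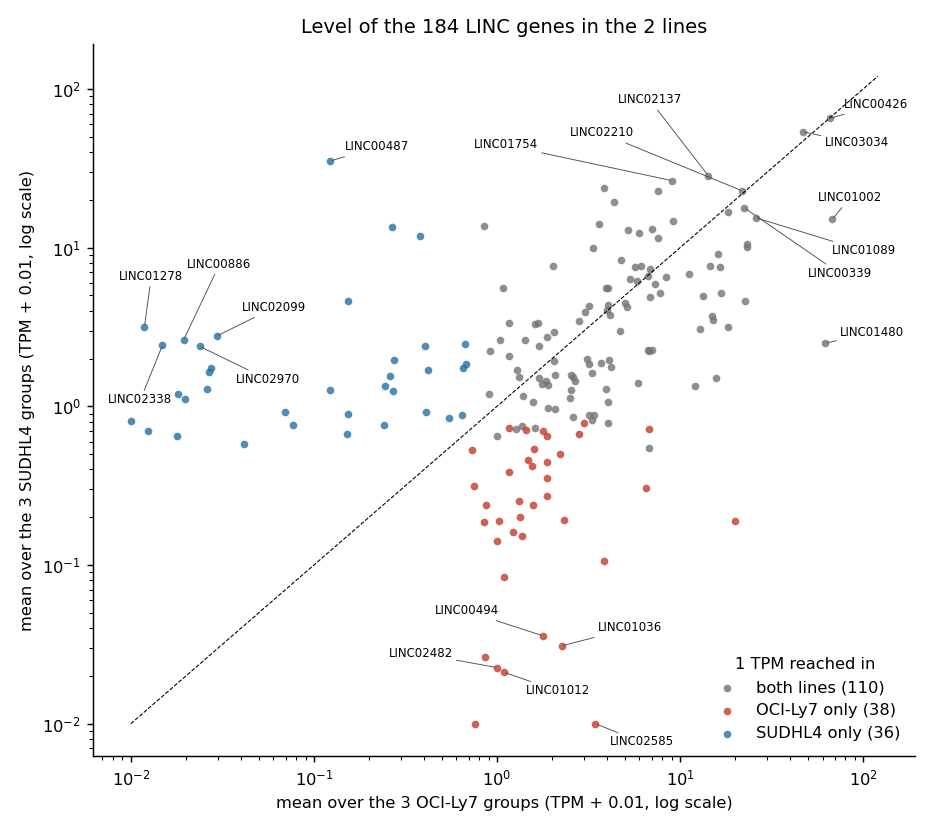
Mean TPM plus 0.01 of each of the 184 members over the groups of OCI-Ly7 (x axis) and of SUDHL4 (y axis), both on a log10 scale, with 1 point per member coloured by the line or lines in which it reached 1 TPM. The 110 members shared by the lines scatter around the diagonal, and LINC01480 and LINC00487 lie far from it on opposite sides.

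Of the 5 highest members restricted to OCI-Ly7, LINC02585 was at 0 in all 4 SUDHL4 libraries. It averaged 3.74 ± 1.32 TPM in OCI-Ly7 OCABi, 2.62 ± 1.70 TPM in OCT2i and 3.82 ± 0.864 TPM in controls. LINC01036 ran from 1.13 to 3.71 TPM over the OCI-Ly7 libraries, and LINC00494, LINC01012 and LINC02482 had 0.0414 to 7.79 TPM. LINC00494 was the least even of them, with 0.313 to 3.15 TPM in OCABi, 0.634 to 7.79 TPM in OCT2i and 0.187 to 2.97 TPM in controls. Of the 5 highest restricted to SUDHL4, LINC01278 had 2.49 TPM in OCABi, 2.76 and 3.17 TPM in OCT2i and 4.01 TPM in the control, and at most 0.0140 TPM in any OCI-Ly7 library. LINC00886 had 2.73 TPM in SUDHL4 OCABi, 2.28 and 2.43 TPM in OCT2i and 2.76 TPM in the control, so its 4 libraries lay close together. LINC02970 had 3.27, 1.88, 2.09 and 1.87 TPM in the same order of libraries, and LINC02338 had 1.91, 3.14, 3.92 and 1.79 TPM. Both OCT2i libraries of LINC02338 were above its OCABi and control libraries. The fifth, LINC02099, is described with the SUDHL4 responses.

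The responses to each knockdown were tested with edgeR's quasi-likelihood test over all genes that passed a filter on low counts, at a Benjamini-Hochberg adjusted p below 0.05. A member could have entered the list through the groups of the contrast itself, so for each contrast only members that reached 1 TPM in a group outside it were counted. In OCI-Ly7, 182 members met this condition for POU2AF1 knockdown, 149 of them were tested, and 4 were called, all lower (2.69%). Over all 16001 genes tested in that contrast, 0.887% were called, and 0.606% lower. In the joint fit the same 4 were called, against 0.814% of all genes. The median log2 change was -0.09 over the 149 members and -0.0042 over all genes. Of the 149, 34 reached 1 TPM in OCI-Ly7 alone, so they met the condition only through OCT2i, which is set against the same controls. They held 1 of the 4 calls, and the other 3 were among 108 members of both lines. At an unadjusted edgeR p below 0.05 there were 11 of the 149 members, against 1017 of all 16001 genes.

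LINC02006, on chr3:153384934-153980186 (minus strand), was the clearest of the 4. It had 0.772, 1.90, 2.99, 2.57, 2.17 and 3.17 TPM in the 6 OCABi libraries, against 6.44, 10.2, 9.84 and 10.3 TPM in the controls. No OCABi library reached the lowest control. LINC02006 fell by 1.82 ± 0.28 on the log2 scale (edgeR adjusted p = 0.00205), by 1.64 within batch 1 and by 1.92 within batch 2. SUDHL4 showed the same order, with 3.71 TPM in OCABi, 11.9 and 16.8 TPM in OCT2i and 19.1 TPM in the control. There LINC02006 was called lower within the line, with a log2 change of -2.10 ± 0.22 (edgeR adjusted p = 2.46e-09), but had an adjusted p of 0.0523 in the joint fit. In OCI-Ly7 OCT2i, LINC02006 ran from 5.36 to 8.73 TPM with a median of 7.56 TPM, below the controls of its batch in 8 of 8 libraries, but the change of -0.43 ± 0.24 was not called (edgeR adjusted p = 1.00).

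LINC01991, on chr3:187958775-187976407 (minus strand), had 2.92, 4.01, 4.50, 4.48, 5.18 and 3.59 TPM in OCI-Ly7 OCABi, against 9.02, 12, 10.2 and 12.2 TPM in controls. The groups did not overlap, and LINC01991 fell by 1.22 ± 0.26 on the log2 scale (edgeR adjusted p = 0.0322), by 1.11 within batch 1 and by 1.26 within batch 2. In SUDHL4 it had 3.43 TPM in OCABi, 5.51 and 5.99 TPM in OCT2i and 6.31 TPM in the control, and the POU2AF1 change of -0.62 ± 0.30 was not called (edgeR adjusted p = 0.104). In OCI-Ly7 OCT2i, LINC01991 ran from 5.90 to 11.8 TPM with a median of 9.80 TPM and overlapped the controls. Its nearest coding gene is LPP, a focal adhesion protein gene at 176877 bp, which had a log2 change of -0.44 ± 0.14 in OCI-Ly7, not called (edgeR adjusted p = 0.234) unless the series mark was a block (-0.44, adjusted p = 0.0237), and fell by 1.31 ± 0.11 in SUDHL4 (adjusted p = 9.69e-12, and 0.0157 in the joint edgeR fit). On the other side, 213048 bp away, lies BCL6, the transcriptional repressor that defines germinal centre B cells, which was looked at after its values were seen. BCL6 had 21.9, 68.9, 64.6, 62.8, 70.8 and 70.5 TPM in OCI-Ly7 OCABi, against 156, 201, 179 and 152 TPM in controls, and fell by 1.44 ± 0.18 on the log2 scale (edgeR adjusted p = 0.000414). In SUDHL4, where LINC01991 was not called, BCL6 had 94.3 TPM in OCABi, 175 and 219 TPM in OCT2i and 347 TPM in the control, and fell by 1.53 ± 0.13 after POU2AF1 knockdown (edgeR adjusted p = 1.18e-11 within the line and 0.0393 in the joint fit). After POU2F2 knockdown the change of BCL6 was -0.66 ± 0.16 in OCI-Ly7, not called (edgeR adjusted p = 1.00), and -0.71 ± 0.11 in SUDHL4, called within the line (adjusted p = 1.38e-05) but not in the joint edgeR fit (1).

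Promoter sequences of 300 bases, 250 before to 50 after the annotated start, were available from RefSeq (GRCh38.p14) for 114 of the 184 members. They were searched for the octamer ATGCAAAT on both strands, whose complement reads ATTTGCAT. Of the 114, 5 members (4.39%) held it: LINC00641, LINC01054, LINC02202, LINC02338 and LINC02576. Of all 35116 promoters of the same length, 623 (1.77%) held it, and of the 1583 LINC genes with such a promoter 47 did. The 1.77% counts promoters, while members and LINC genes are counted by gene, so LINC genes are the nearer comparison. A match is a description of these letters and not a site, and its absence says only that these letters are not in this window. The promoter of LINC01991, at chr3:187976358-187976657 on the minus strand, is shown because that gene was called lower in OCI-Ly7 and is the only one of the 4 whose promoter was matched. It has no octamer and is printed wholly in lower case, 5′ to 3′.
LINC01991: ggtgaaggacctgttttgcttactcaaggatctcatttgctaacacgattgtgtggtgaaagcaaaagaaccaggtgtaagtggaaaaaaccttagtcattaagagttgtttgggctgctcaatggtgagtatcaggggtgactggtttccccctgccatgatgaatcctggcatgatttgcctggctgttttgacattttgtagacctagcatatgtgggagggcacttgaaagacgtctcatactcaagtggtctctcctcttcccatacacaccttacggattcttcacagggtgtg

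LINC00698, on chr3:62950430-63125062 (plus strand), was near the lower limit of detection after POU2AF1 knockdown. It had 0.116, 0.173, 0.0710, 0.154, 0.234 and 0.453 TPM in OCI-Ly7 OCABi, against 0.696, 0.451, 1.44 and 3.06 TPM in controls. The groups overlapped through OCABi replicate 6, which lay just above the lowest control, replicate 7, and the other OCABi libraries were below all controls. LINC00698 fell by 2.52 ± 0.57 on the log2 scale (edgeR adjusted p = 0.0403), by 2.87 within batch 1 and by 2.27 within batch 2. OCT2i libraries had 0.496 to 2.20 TPM with a median of 0.937 TPM and overlapped the controls. SUDHL4 libraries held 0 to 2 reads of LINC00698, too few for a comparison. LINC00698 therefore met the condition only through the OCI-Ly7 OCT2i group, which is set against the same controls. CADPS, a secretion protein gene 75041 bp away, had a log2 change of 0.01 in OCI-Ly7.

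LINC02137, on chr16:58421326-58462470 (plus strand), had 6.41, 7.74, 9.78, 8.25, 9.72 and 14.8 TPM in OCI-Ly7 OCABi, against 16.8, 16.9, 19.4 and 17.3 TPM in controls. All 6 OCABi libraries were below all 4 controls, and LINC02137 fell by 0.72 ± 0.16 on the log2 scale (edgeR adjusted p = 0.0447), by 0.97 within batch 1 and by 0.51 within batch 2. In SUDHL4 it was highest in OCABi, with 34.5 TPM, against 23.8 and 28.4 TPM in OCT2i and 24.7 TPM in the control. There LINC02137 was called higher within the line by 0.74 ± 0.17 (adjusted p = 0.000599), but not in the joint edgeR fit (adjusted p = 0.367). The difference between the lines' responses, -1.45 ± 0.36, was not called (edgeR adjusted p = 0.0736). NDRG4, an NDRG family gene whose body lies 376 bp away, had a log2 change of -0.80 ± 0.33 in OCI-Ly7 (edgeR adjusted p = 0.597) and of 0.49 ± 0.15 in SUDHL4 (adjusted p = 0.0118, and 0.886 in the joint edgeR fit).

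These 4 calls depended on single libraries. Leaving out control replicate 1, the only control of batch 1, left 0 members called by edgeR, and over all genes 8 of 16331 were called then, against 142 of 16001 with every library. Leaving out OCABi replicate 2 or 3 or control replicate 9 left 1, against 109 of 15913, 110 of 15941 and 124 of 16289 genes. Leaving out OCABi replicate 5 or 6, control replicate 7 or 8 or OCT2i replicate 2 left 2. Over all genes those settings called 85 of 15963, 136 of 15950, 125 of 16361, 116 of 16334 and 124 of 15961. Without OCABi replicate 1, the library with the high mitochondrial share, 3 were called, against 152 of 15956 genes. Of the 29 alternative settings, LINC02006 was called in 27, LINC01991 in 21, LINC00698 in 17 and LINC02137 in 10, with the fitted change negative in all of them. With the series mark as a block, 10 members were called (6.71%), 2 higher and 8 lower, against 5.59% of all genes. The added members were LINC02245 and LINC03047, higher, and LINC00877, LINC01484, LINC02397 and LINC02901, lower.

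**Figure D2:**
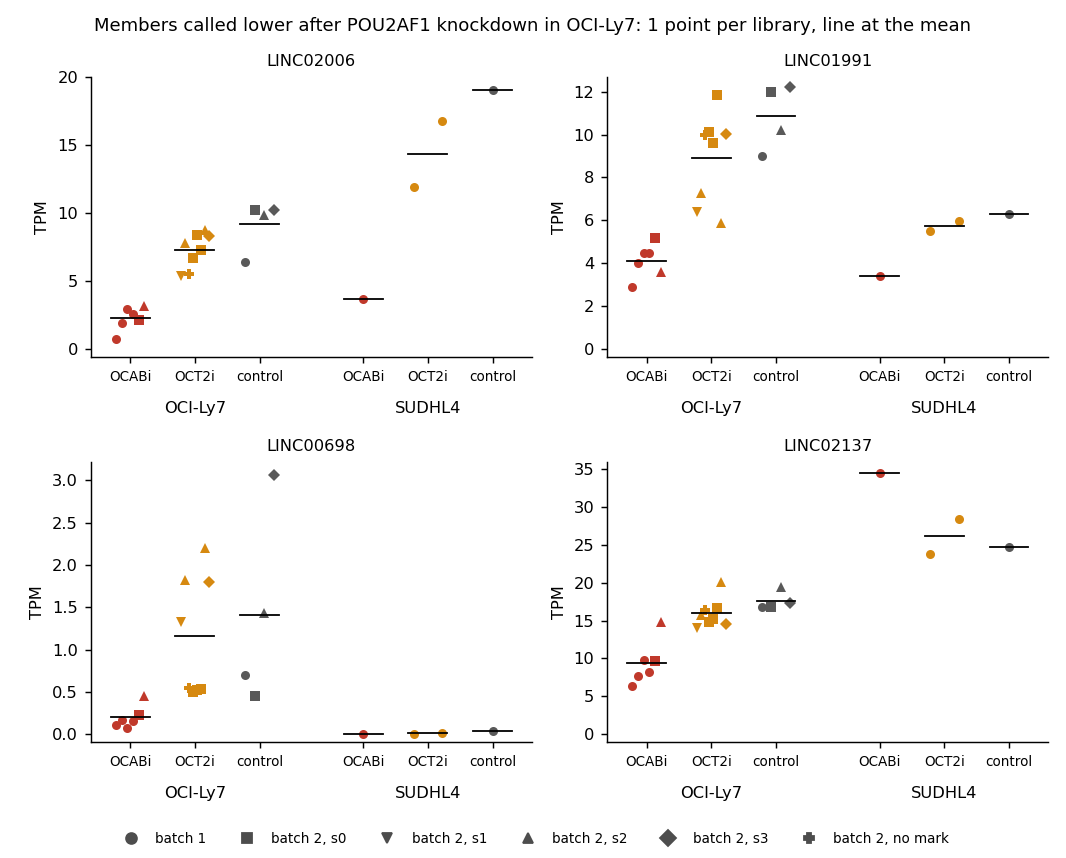
TPM of LINC02006, LINC01991, LINC00698 and LINC02137 in each library (y axis) by group (x axis), with marker shape for the batch or series mark and a line at the group mean. In OCI-Ly7 the OCABi libraries lie below the controls for all but LINC00698, where replicate 6 meets the lowest control, and LINC02137 is highest in the SUDHL4 OCABi library.

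Of the members on 1 side of the controls of their batch in every OCABi library, in TMM-scaled counts, but not called, the largest changes were those of LINC01887 among lower ones (log2 change -1.73 ± 0.63, edgeR adjusted p = 0.408) and of LINC02245 and LINC03047 among higher ones (0.66 ± 0.25 and 0.62 ± 0.28, edgeR adjusted p = 0.47 and 0.72). LINC01887 was on 1 side in TPM also. In TPM, LINC02245 was not, with 1.295 TPM in OCABi replicate 1 against 1.589 TPM in control replicate 1, and neither was LINC03047, with 24.94 TPM in OCABi replicate 6 against 25.03 TPM in the highest control. LINC01887 shares 74.5% of its words with other genes. It had 0 reads in every SUDHL4 library, so it met the condition only through OCI-Ly7 OCT2i, which is set against the same controls. In that group replicate 1 had 2.41 TPM and the others 0.566 to 1.27 TPM.

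POU2F2 knockdown in OCI-Ly7 gave no call among the 142 members tested, and none among all 16001 genes (0%). At an unadjusted p below 0.05 there were 2 members with edgeR, against 283 of 16001 genes. With DESeq2 there were 3, against 333 genes, and it called 0 members and 5 genes. POU2F2 itself, lower in every OCT2i library than in every control, had an adjusted p of 0.0559 in this edgeR fit, so a change of its size did not pass the threshold here. LINC01483, on 1 side of the controls of its batch in every library, had 13.4 to 48.0 TPM in OCT2i, against 11.1 to 12 TPM in controls. Its highest value came from replicate 1, and the next was 20.8 TPM. The log2 change of LINC01483 was 0.56 ± 0.35 and was not called (edgeR adjusted p = 1.00).

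**Figure D3:**
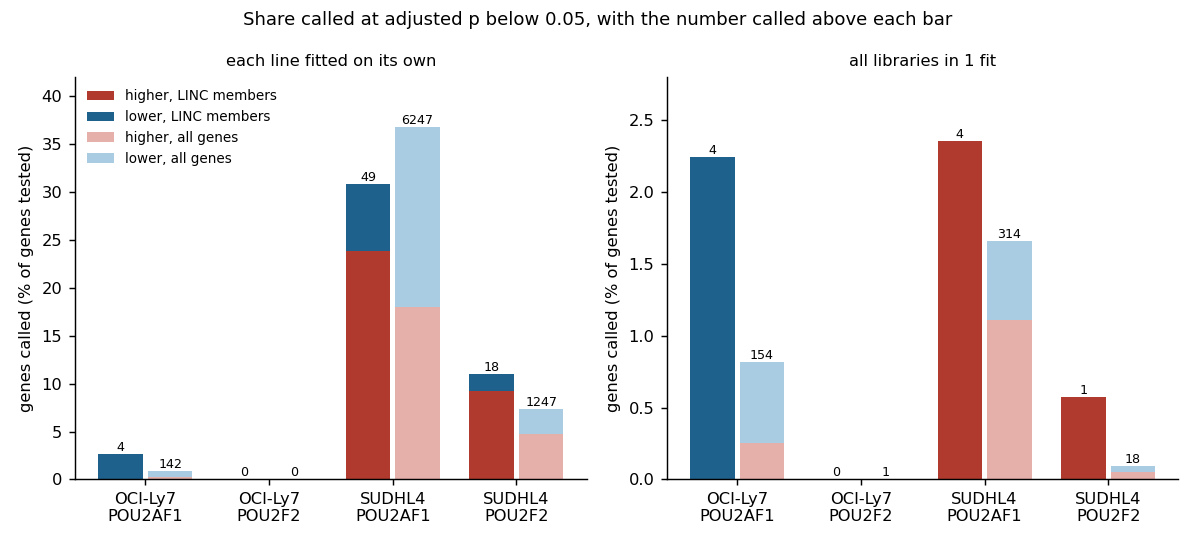
Percentage of tested genes (y axis) called higher (red) and lower (blue) at an adjusted p below 0.05 among LINC members and, to their right, among all genes tested, for each knockdown and line (x axis), with each line fitted alone in 1 panel and all libraries fitted together in the other. In SUDHL4 fitted alone, 30.8% of members were called after POU2AF1 knockdown and 36.8% of all genes, and in the joint fit 1.66% of all genes were. Members that reached 1 TPM in 1 line alone are included.

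In SUDHL4, where 1 POU2AF1 knockdown library was set against 1 control, 174 members met the condition and 159 were tested. Of these 49 were called (30.8%), against 36.8% of all 16973 genes, so the share was not above that of all genes. By direction 38 were called higher and 11 lower, while over all genes 18% were called higher and 18.8% lower. The median log2 change was 0.35 over the members tested and 0.0087 over all genes. The condition leans these member values toward higher changes, as set out below. This fit takes its spread from the pair of OCT2i libraries alone. In a joint fit with 1 spread over all 22 libraries, 4 of 170 members were called (2.35%), all higher, against 1.66% of all 18918 genes, 1.11% higher: LINC00299, LINC00598, LINC01215 and LINC02397. For POU2F2 knockdown, 18 of 163 tested members were called (11%), 15 higher and 3 lower, against 7.35% of all genes, 4.79% higher and 2.56% lower. The joint fit called 1 of 174, LINC00598, against 0.0951% of all genes. Both SUDHL4 contrasts share the 1 control library.

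Members that reached 1 TPM in SUDHL4 alone met the condition only through the other knockdown of that line, which is set against the same control. A member that reached 1 TPM in that control alone did not meet it, so members of SUDHL4 alone are described below by their values, without a call. The counts and medians above still include them. They made up 25 of those tested for POU2AF1, with 9 calls, 8 higher and 1 lower, and 29 for POU2F2, with 6 calls, all higher. Their median log2 change was 0.619 for POU2AF1 and 0.532 for POU2F2. Because members that reached 1 TPM in the control alone were left out, these medians, the calls and the totals above lean toward higher changes. The medians of 0.235 and 0.115 for members of both lines therefore give no comparison of response. Of the members that met the condition through OCI-Ly7, POU2AF1 knockdown in SUDHL4 gave 38 calls among 110 that reached 1 TPM in both lines, 28 higher and 10 lower, and 2 among 24 that reached it in OCI-Ly7 alone, both higher. These counts stand beside 36.8% of all genes within the line, and the joint fit called the 4 members named above. For POU2F2 knockdown the counts were 10 of 110, 8 higher and 2 lower, and 2 of 24, beside 7.35% of all genes, with 1 call in the joint fit.

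LINC00598, on chr13:40079106-40535807 (minus strand), overlaps FOXO1, a forkhead transcription factor gene, on the same strand. In SUDHL4 it had 1.65 TPM in OCABi, 2.05 and 1.72 TPM in OCT2i and 0.472 TPM in the control. All 3 knockdown libraries were above the control, and LINC00598 rose by 1.92 ± 0.44 after POU2AF1 knockdown (edgeR adjusted p = 0.000722 within the line and 0.00932 in the joint fit) and by 1.84 ± 0.40 after POU2F2 knockdown (0.00253, and 0.0402). OCI-Ly7 held more of it, 8.08 to 14.2 TPM in OCABi, 11.8 to 20.7 TPM in OCT2i and 9.02, 9.03, 11.5 and 19.1 TPM in controls, and these groups overlapped. The POU2AF1 response of LINC00598 in OCI-Ly7 was lower than in SUDHL4 by 1.90 ± 0.39 (edgeR interaction, adjusted p = 0.0254). FOXO1 had 32.4 TPM in SUDHL4 OCABi, 24.9 and 24.5 TPM in OCT2i and 20.5 TPM in the control, and rose by 0.88 ± 0.11 after POU2AF1 knockdown (edgeR adjusted p = 1.16e-07 within the line and 0.0245 in the joint fit). Its own difference between the lines was not called (-0.63 ± 0.21, edgeR adjusted p = 0.210), but was called with the series mark as a block (-0.62, adjusted p = 0.0272).

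LINC02397 and LINC01215 lie outside the rule for naming members and were chosen after their values were seen. LINC02397, on chr12:92466451-92492091 (plus strand), had 1.18 TPM in SUDHL4 OCABi, 0.749 and 0.850 TPM in OCT2i and 0.467 TPM in the control. It rose by 1.58 ± 0.22 after POU2AF1 knockdown (edgeR adjusted p = 5.29e-07 within the line and 0.000397 in the joint fit). After POU2F2 knockdown LINC02397 was called higher by 0.84 ± 0.20 within the line (edgeR adjusted p = 0.0051), but not in the joint fit (0.160). OCI-Ly7 OCABi had 1.77 to 3.20 TPM of LINC02397, against 2.82 to 4.13 TPM in controls, with all 6 below the controls of their batch and a log2 change of -0.34 ± 0.10 that was not called (edgeR adjusted p = 0.151). The lines' POU2AF1 responses of LINC02397 differed by -1.91 ± 0.23 (edgeR interaction, adjusted p = 0.000262). LINC01215, on chr3:108125821-108138610, had 12.1 TPM in SUDHL4 OCABi, 8.34 and 8.69 TPM in OCT2i and 6.89 TPM in the control, and rose by 1.07 ± 0.14 after POU2AF1 knockdown (edgeR adjusted p = 2.7e-07 within the line and 0.0417 in the joint fit).

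LINC00598 and LINC02397 were the only members with a called difference between the lines' POU2AF1 responses, 2 of 168 tested (1.19%), against 0.798% of all 18918 genes, 0.655% lower. For POU2F2 edgeR called 0 of 165, against 0.0106% of all genes. At an unadjusted p below 0.05 there were 6, against 474 of 18918 genes. With the series mark as a block 18 members differed for POU2AF1 (10.7%), against 10.3% of all genes. The promoter of LINC02397, the member with the lower p, is shown at chr12:92466429-92466728 on the plus strand (GRCh38.p14). Its RefSeq start lies 228 bp from the GENCODE start, and it holds no octamer.
LINC02397: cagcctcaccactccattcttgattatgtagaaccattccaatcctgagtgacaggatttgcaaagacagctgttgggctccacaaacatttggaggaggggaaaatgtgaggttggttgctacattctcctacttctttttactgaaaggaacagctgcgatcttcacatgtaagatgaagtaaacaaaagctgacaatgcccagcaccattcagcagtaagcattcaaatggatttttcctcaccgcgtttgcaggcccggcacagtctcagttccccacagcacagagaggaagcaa

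LINC00299, on chr2:8007771-8383621, had 39 reads in the SUDHL4 OCABi library and 4 and 1 reads in OCT2i, against 0 in the control. OCI-Ly7 libraries had more of it, 0.247 to 2.97 TPM, and their groups overlapped. Set against a floor of 3 reads in the control, it was at least 11-fold higher after POU2AF1 knockdown (edgeR adjusted p = 0.0263 in the joint fit). LINC00299 had too few reads after POU2F2 knockdown for a fold. ID2, an inhibitor of basic helix-loop-helix factors and the nearest coding gene at 295224 bp, had 24.2 TPM in SUDHL4 OCABi, 9.92 and 10.2 TPM in OCT2i and 10.7 TPM in the control. ID2 was called higher within SUDHL4 (1.59 ± 0.19, edgeR adjusted p = 2.29e-08), but not in the joint fit (0.265).

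**Figure D4:**
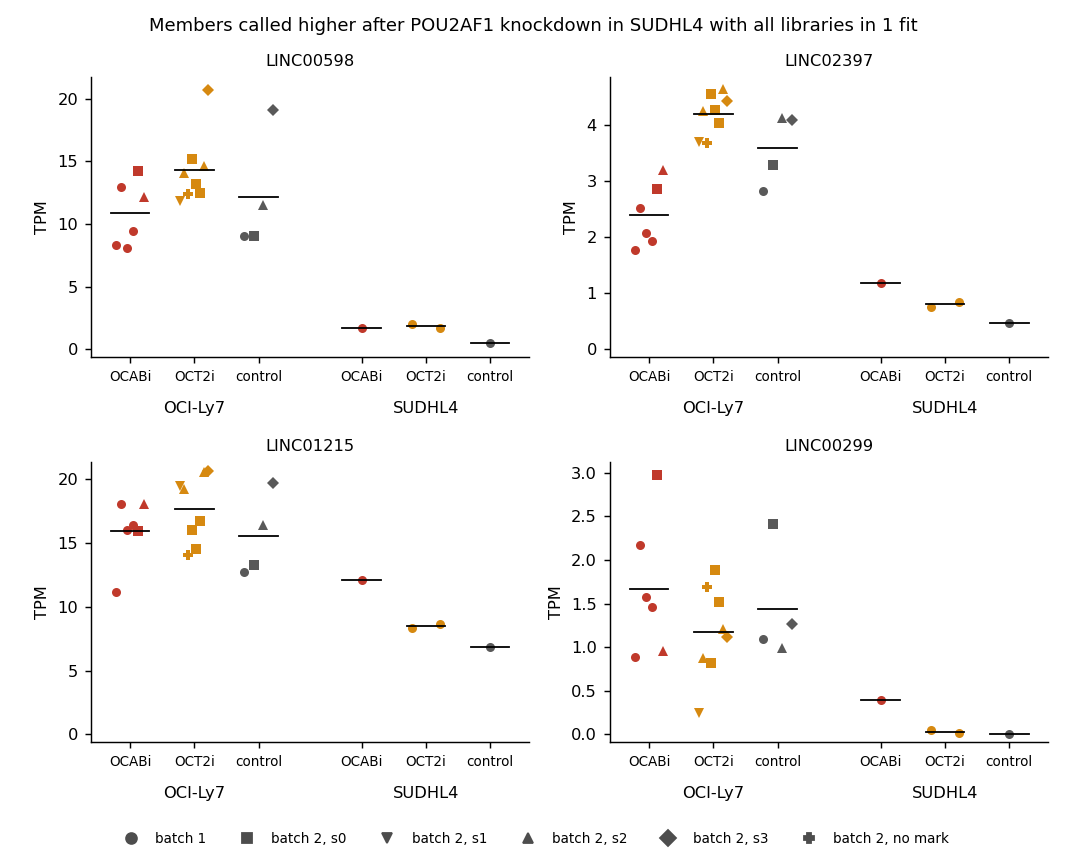
TPM of LINC00598, LINC02397, LINC01215 and LINC00299 in each library (y axis) by group (x axis), with marker shape for the batch or series mark and a line at the group mean. In SUDHL4 the OCABi library lies above the control for each of them, while the OCI-Ly7 groups of LINC00598 overlap.

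LINC02099 and LINC00589 reached 1 TPM in SUDHL4 alone and lie head to head on chromosome 8, 200 bp apart on opposite strands. LINC02099 had 6.28 TPM in SUDHL4 OCABi, 1.47 and 1.40 TPM in OCT2i and 0.569 TPM in the control. LINC00589 had 2.39, 0.552, 0.890 and 0.194 TPM in the same order. Both neighbours were highest in OCABi and lowest in the control. Both reached 1 TPM only in knockdown libraries and were named for large changes, so a low control was part of that choice. SARAF, the nearest coding gene of both, had log2 changes of 0.42 ± 0.10 after POU2AF1 knockdown and -0.0096 ± 0.091 after POU2F2 knockdown.

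LINC01483 had 5.42 TPM in SUDHL4 OCABi, 3.0 and 2.89 TPM in OCT2i and 0.838 TPM in the control. It was called higher within the line for POU2AF1 by 3.04 ± 0.60 (edgeR adjusted p = 0.000109) and had an adjusted p of 0.0774 in the joint fit. LINC01160 had 6.16 TPM in OCABi, 2.55 and 2.88 TPM in OCT2i and 1.16 TPM in the control, with a change of 2.68 ± 0.42 for POU2AF1 (edgeR adjusted p = 3.52e-06 within the line and 0.0571 in the joint fit). LINC01160 overlaps RAP1A, a small GTPase gene, on the opposite strand. RAP1A had a log2 change of -0.0049 ± 0.11 after POU2AF1 knockdown in SUDHL4, and MAP2K6, 23390 bp from LINC01483, had 0.44 ± 0.15. LINC01353, with 5.6 TPM in OCABi, 3.39 and 3.13 TPM in OCT2i and 1.44 TPM in the control, lies 13511 bp from CHIT1, the chitotriosidase gene. CHIT1 had 11.9 TPM in OCABi, 4.17 and 6.33 TPM in OCT2i and 3.47 TPM in the control. LINC01353 was called higher (edgeR adjusted p = 0.000205 within the line and 0.146 in the joint fit), and so was CHIT1 (2.14 ± 0.24, edgeR adjusted p = 4.32e-08, and 0.297). In each of these members and in CHIT1 the OCABi library was highest, the OCT2i pair was intermediate and the control was lowest. The members were named for large POU2AF1 changes in SUDHL4, and both knockdowns share the 1 control. Their order was therefore partly set by that choice and is a description only.

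LINC00877 had 2.07 TPM in SUDHL4 OCABi, against 0.667 and 0.649 TPM in OCT2i and 0.641 TPM in the control, so only the POU2AF1 library stood apart (edgeR adjusted p = 9.62e-05 within the line, and 0.175 in the joint fit). LINC02950 had 3.44 TPM in OCABi, 1.42 and 1.48 TPM in OCT2i and 0.594 TPM in the control. It reached 1 TPM in SUDHL4 alone, and 31.2% of its words are shared with other genes. The nearest coding genes, RYBP for LINC00877 and PRAG1 for LINC02950, had POU2AF1 log2 changes of 0.39 ± 0.14 and 0.58 ± 0.10. LINC01852 had 19 reads in OCABi and 15 and 21 reads in OCT2i, against 1 read in the control. Its ratio to the control was 16.1 for POU2AF1 (exact 95% interval 2.56 to 670) and 19.2 for POU2F2 (3.24 to 781), where intervals and floors cover counting error only. LINC01852 was called within the line for both (edgeR adjusted p = 0.00703 and 0.0123), with adjusted p-values of 0.095 and 0.382 in the joint fit.

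LINC02202 and LINC02576, whose promoters held the octamer, had opposite changes after POU2AF1 knockdown within SUDHL4. LINC02202, on chr5:159100483-159117478 (plus strand), starts 722 bp from the body of EBF1, a transcription factor of early B cell development transcribed the other way. It had 15.6 TPM in SUDHL4 OCABi, 9.48 and 8.86 TPM in OCT2i and 4.8 TPM in the control. LINC02202 was called higher by 2.19 ± 0.27 for POU2AF1 (edgeR adjusted p = 4.54e-08 within the line and 0.137 in the joint fit) and by 1.07 ± 0.24 for POU2F2 (0.00363, and 1). EBF1 had 23.7 TPM in OCABi, 16.7 and 17.0 TPM in OCT2i and 15.8 TPM in the control, and its POU2AF1 change of 0.82 ± 0.11 was called (edgeR adjusted p = 3.38e-07 within the line and 0.182 in the joint fit). LINC02576, on chr2:65030727-65053017 (plus strand), had 1.46 TPM in SUDHL4 OCABi, against 9.43 and 11.3 TPM in OCT2i and 10.9 TPM in the control. It was called lower within the line by 2.88 ± 0.32 (edgeR adjusted p = 8.04e-09), but not in the joint fit (0.638), and its OCI-Ly7 libraries spread from 0.272 to 18.7 TPM. CEP68, the nearest coding gene of LINC02576 at 3349 bp, had a log2 change of -0.18 ± 0.11 after POU2AF1 knockdown in SUDHL4. The promoters of LINC02202 and LINC02576, at chr5:159100233-159100532 and chr2:65030477-65030776 on the plus strand of GRCh38.p14, are shown with the octamer in capitals. It begins 85 and 110 bases before the start and reads on the minus strand in both.
LINC02202: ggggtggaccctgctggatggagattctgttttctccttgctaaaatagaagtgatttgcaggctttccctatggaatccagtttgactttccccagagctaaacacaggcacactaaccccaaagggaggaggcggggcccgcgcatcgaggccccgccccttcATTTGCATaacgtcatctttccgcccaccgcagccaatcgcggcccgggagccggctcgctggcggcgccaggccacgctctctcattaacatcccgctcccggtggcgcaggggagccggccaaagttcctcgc
LINC02576: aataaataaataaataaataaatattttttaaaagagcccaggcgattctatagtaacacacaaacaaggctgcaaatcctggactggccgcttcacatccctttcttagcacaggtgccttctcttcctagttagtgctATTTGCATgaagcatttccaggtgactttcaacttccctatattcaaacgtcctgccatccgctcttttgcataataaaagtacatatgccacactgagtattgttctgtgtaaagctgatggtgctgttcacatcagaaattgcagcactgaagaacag

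LINC01670 was the other large decrease, with 0.163 TPM in SUDHL4 OCABi, 0.627 and 0.720 TPM in OCT2i and 1.48 TPM in the control (edgeR adjusted p = 0.0127 within the line, and 0.122 in the joint fit), and nearly all of its words are shared with other genes. LINC01004, with 1 read in OCABi against 26 in the control, was not called (edgeR adjusted p = 0.0994). After POU2AF1 knockdown in SUDHL4, the coding gene nearest LINC01670 had a log2 change of 0.86 ± 0.16, and KMT2E, 1135 bp from LINC01004, had 0.09 ± 0.11. LINC01754 was the most abundant of those called in both SUDHL4 contrasts, with 40.4 TPM in OCABi, 22.8 and 24.9 TPM in OCT2i and 14.9 TPM in the control. Its changes were 1.72 ± 0.16 for POU2AF1 (edgeR adjusted p = 2.69e-10 within the line and 0.392 in the joint fit) and 0.78 ± 0.15 for POU2F2 (0.00046, and 1).

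For POU2F2 knockdown, LINC02842 and LINC01800 are members that reached 1 TPM in SUDHL4 alone. LINC02842 had 3.61 and 3.31 TPM in SUDHL4 OCT2i and 2.08 TPM in OCABi, against 0.344 TPM in the control. LINC01800 had 1.61 and 2.10 TPM in OCT2i, 2.30 TPM in OCABi and 0.921 TPM in the control. In both of them every knockdown library was above the control, but they reached 1 TPM only in knockdown libraries. A low control was therefore part of how they were chosen. ASPH, the coding gene nearest LINC02842, had log2 changes of -0.19 ± 0.095 after POU2F2 knockdown and -0.57 ± 0.11 after POU2AF1 knockdown. SERTAD2, nearest to LINC01800, had 0.045 ± 0.089 and -0.17 ± 0.10. LINC02901 was one of the 3 called lower, with 0.207 and 0.0805 TPM in OCT2i and 0.434 TPM in OCABi, against 0.902 TPM in the control (log2 change -2.56 ± 0.72, edgeR adjusted p = 0.0223, and 0.0896 in the joint fit). LINC02021 had 14 and 6 reads in OCT2i, against 0 in the control, at least 3.56-fold higher against a floor of 3 reads, and was not called within the line (edgeR adjusted p = 0.0501).

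**Figure D5:**
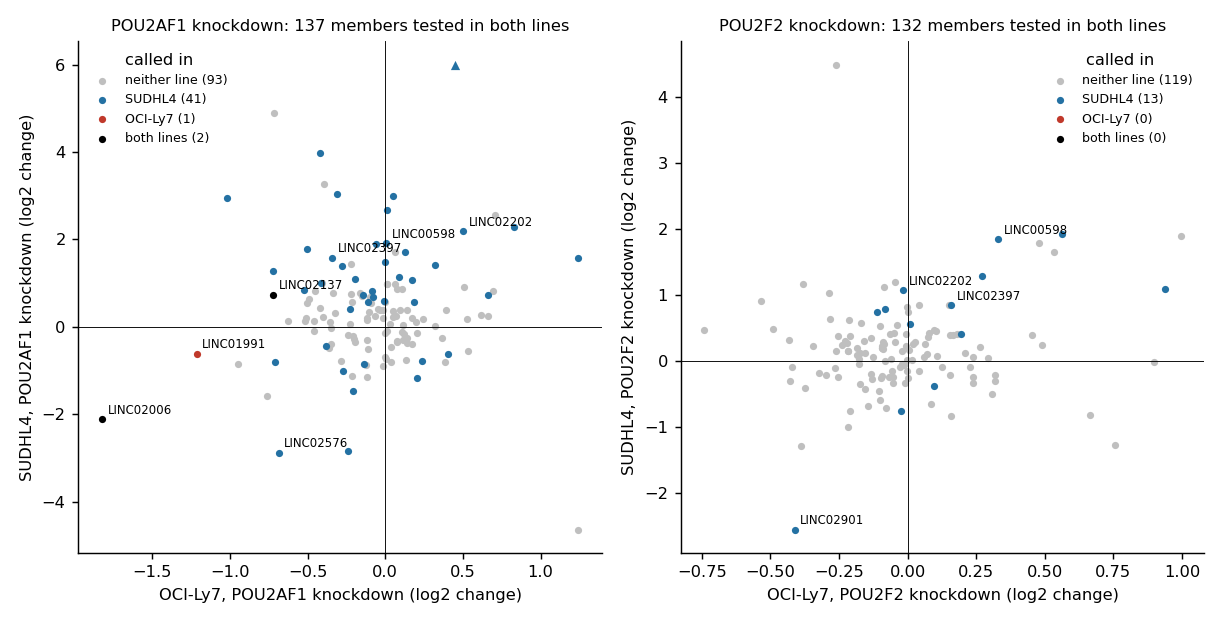
Fitted log2 change of each member in OCI-Ly7 (x axis) and in SUDHL4 (y axis) after POU2AF1 knockdown (137 members in both fits) and POU2F2 knockdown (132 members), coloured by the line in which the member was called, with triangles for values beyond 6. After POU2AF1 knockdown 41 members were called in SUDHL4 alone, 1 in OCI-Ly7 alone and 2 in both, and after POU2F2 knockdown 13 were called, all in SUDHL4. Over all genes the POU2AF1 contrast called 36.8% in the SUDHL4 fit and 0.887% in the OCI-Ly7 fit, and the POU2F2 contrast 7.35% and 0%. Members that reached 1 TPM in 1 line alone are included.

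A list of 38 other long noncoding RNA genes was measured for comparison. In OCI-Ly7, edgeR called 0 of 35 tested for either knockdown. At an unadjusted p below 0.05 there were 0 for POU2AF1 and 1 for POU2F2, against 1017 and 283 of 16001 genes. In SUDHL4 fitted alone, 19 of 34 were called after POU2AF1 knockdown, 15 higher and 4 lower, with a median log2 change of 0.32, against 36.8% of all genes called, 18% higher and 18.8% lower, and a median of 0.0087. After POU2F2 knockdown 2 were called, MALAT1 and FTX, both higher, against 7.35% of all genes. The joint fit called 0 of 37 in each SUDHL4 contrast, against 1.66% of all genes for POU2AF1 and 0.0951% for POU2F2. At an unadjusted p below 0.05 it had 4 for POU2AF1 and 0 for POU2F2, against 2328 and 557 of 18918 genes.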

How the data were processed

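Per the submitters' processing notes, fastp (whose version the sources used here do not give) trimmed the reads and Salmon 1.5.1 quantified them on GRCh38.p13. Which annotation release and strand setting were used is not stated there. For 227912 transcripts, each of 26 files deposited by the authors gives an estimated count of reads and a TPM value, which corrects for length and scales to the library. By identifier, 205964 transcripts matched a gene of GENCODE release 29, and they took 98.4% to 98.9% of a file's estimated reads. Gene totals of the estimated counts were rounded for testing, and TPM was added up per gene. A current gene table gave the symbols, and GENCODE the rest.

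Files that held repeated runs of 1 library were merged: control files 1, 2 and 3 of OCI-Ly7, where file 3 equals the sum of the others within 2 reads for 92.9% of genes, and the pairs of files of SUDHL4 control and OCABi. This left 22 libraries.

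Rounded counts were tested with edgeR 4.0.16 (R 4.3.3; filterByExpr with a minimum count of 10, TMM, quasi-likelihood), in OCI-Ly7 with batch as a term, in SUDHL4 on its 4 libraries (1 residual degree of freedom), and in a joint fit of all libraries that also gave the differences between lines. Changes are log2 values of knockdown over control with their SE. The procedure was tested on simulated counts. DESeq2 1.42.0, other filters and levels, blocks and left-out libraries were tried as alternatives. Tables and plots used Python 3.11.15, pandas 2.3.3, scipy 1.17.1 and matplotlib 3.10.9. Shared words are 31-base stretches of annotated transcripts.

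The members and lists were chosen with earlier results of these data known. Named members were the 10 highest, all called in a contrast or the 10 largest changes, the 3 largest changes each way among members on 1 side of their batch's controls, the 5 highest restricted to each line, the 3 on either side of 1 TPM, and nearest coding genes.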

Additional observations from a re-analysis of the deposited data

Results flagged for a closer look

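In groups of 4 to 10 libraries with a mean of at least 1 TPM, 13 of 101 groups of named members held a library far from the rest, by the gap to its nearest neighbour as a share of the group's range. Chance gives about 1 in 20 for a single group of like libraries. Here the groups reuse the same libraries and mix batches and series marks, so their share cannot be set against it. Of these, 6 were in OCI-Ly7 OCABi, 5 in OCT2i and 2 in controls. OCABi replicate 6, the only OCABi library with series mark s2, was the high one in 5: LINC00426 (86.9 TPM, others 50.1 to 58.9), LINC02210 (31.4 TPM, others 15.8 to 19.8), LINC00339 (30.1 TPM, others 16.6 to 21.2), LINC01754 (14 TPM, others 6.04 to 8.66) and LINC01670 (7.24 TPM, others 1.66 to 3.12). OCABi replicate 1, the library with the high mitochondrial share, was low for LINC01215 (11.2 TPM, others 15.9 to 18.1).

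OCT2i replicate 1, the only library with series mark s1, was high for LINC01483 (48.0 TPM, others 13.4 to 20.8) and LINC01887 (2.41 TPM, others 0.566 to 1.27) and low for LINC02245 (0.806 TPM, others 1.68 to 2.44). OCT2i replicate 7 was high for LINC02137 (20.1 TPM, others 14 to 16.7), and replicate 8 for LINC00598 (20.7 TPM, others 11.8 to 15.2). Among controls, replicate 1 was low for LINC02006 (6.44 TPM, others 9.84 to 10.3), and replicate 9 was high for LINC01852 (2.72 TPM, others 1.02 to 1.31). The part that series, batch or the mitochondrial share has in these values was not tested.

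The POU2AF1 response differed between OCI-Ly7 and SUDHL4 for LINC02397 (log2 difference -1.91, edgeR interaction, adjusted p = 0.000262) and LINC00598 (-1.90, adjusted p = 0.0254), and the SUDHL4 side rests on 1 knockdown and 1 control library.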

How the results depend on the processing

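For POU2AF1 knockdown in OCI-Ly7, edgeR called 4 members, against 10 with the series mark as a block, 10 with OCT2i replicate 3 also placed in batch 1 and 14 without OCABi replicate 1 (both chosen after seeing the data), 0 in batch 1 alone and 1 in batch 2 alone. Over all genes these settings called 142, 894 and 1120 of 16001, 1692 of 15956, 24 of 17140 and 7 of 16296. Leaving out 1 library gave 0 to 5 members, against 8 of 16331 to 182 of 15910 genes. In SUDHL4, the 49 called for POU2AF1 became 4 in the joint fit, 23 with DESeq2 and 75 with every file as a library, while over all genes 6247 of 16973 became 314 of 18918, 3398 of 16973 and 8896 of 15035. The SUDHL4 counts here include members that reached 1 TPM in SUDHL4 alone. Leaving out 1 SUDHL4 OCT2i library leaves that line without replicates, so no count is given for it. The 18 called for POU2F2 became 1 in the joint fit, 2 with DESeq2 and 34 with every file as a library. Over all genes, 1247 of 16973 became 18 of 18918, 397 of 16973 and 3761 of 15035. Line differences for POU2AF1 numbered 2, but 18 with the series block (over all genes, 151 and 1951 of 18918). With no filter on low counts there was 1 (104 of 44987 genes). With 1 library left out they numbered 2 to 5, against 89 of 18735 to 264 of 18733 genes. At 0.5 TPM 25 members were found in OCI-Ly7 alone, and at 2 TPM 72 in both lines. Of the 491 alternative values of 40 named results, 377 kept their direction and side of the threshold, 106 lost the threshold, 8 passed it and 0 changed sign. Those values include fits with every file as a library and fits that leave 1 library in a group. They also include results not called in the main fit that stayed so, and 377 is therefore no measure of stability. Other causes were not tested. POU2F2 in batch 1 alone gave no value, since OCI-Ly7 has no OCT2i library there.

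With the replicate number as a block beside batch, 7 members were called for POU2AF1 in OCI-Ly7, 3 higher and 4 lower, against 742 of 16001 genes, 406 higher and 336 lower. Libraries with the same number had correlations of -0.605 to 0.577 in their deviations from the group means within batch, against 0.28 to 0.653 for the same series mark. The pair at 0.577, OCABi and OCT2i replicate 5, is in both sets. OCABi replicates 5 and 6 are the only ones of batch 2, so their deviations mirror each other, with 0.605 and -0.605 against OCT2i replicate 6. These ranges therefore cannot decide whether the numbers pair the samples.

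Depth limits members near 1 TPM, and in SUDHL4 the lone control and POU2AF1 libraries limit every response.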
